A study of Mus musculus with 32 samples.

Results

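The 10 genes described here mark monocytes and neutrophils that enter a tissue from the blood: *Ccr2*, *Ly6c2*, *Itgam*, *Csf3r*, *Cxcr2*, *S100a8*, *S100a9*, *Retnlg*, *Mmp8* and *Chil3*. They were taken by gene symbol from the 54532 genes of the deposited liver RNA-Seq table, and all 10 were found. RNA was measured in the livers of male and female C57BL/6 mice at 12 weeks of age, which were wild type (WT) or lacked the bile acid hydroxylase Cyp2c70 (Cyp2c70-/-, KO). Mice of both genotypes ate chow or chow with 0.006% SC-435, about 11 mg/kg/day, an inhibitor of the ileal bile acid transporter that keeps bile acids from being recovered from the gut. This gave 8 groups of 4 mice, each mouse with 1 library. The KO line came from 1 founder made with CRISPR-Cas9, in which a stretch with exon 2 of *Cyp2c70* was deleted in the germline, and no cell type was targeted. Livers of all groups were perfused with PBS before they were frozen, and no mice were fasted.

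Blood monocytes of the inflammatory kind carry the chemokine receptor CCR2 and the surface protein Ly6C, and follow CCL2 from the marrow into injured tissue. Neutrophils mature under G-CSF, follow CXC chemokines through CXCR2, and are filled with the calprotectin subunits S100A8 and S100A9. In a cholestatic liver, injured hepatocytes and bile duct cells release such chemokines, and both cell types gather around them. In RNA from whole liver, fewer cells of a type and less RNA per cell cannot be told apart.

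Library totals ran from 36476021 to 44771350 counts, and the 10 genes together took 0.000257% to 0.00577% of them. These are therefore faint signals, of 0 to 1402 reads per gene and mouse. Levels are given as CPM, the depth-scaled count unit of edgeR after TMM scaling, for replicates 1 to 4 of a group in that order, and 3 counts correspond to 0.0529 to 0.114 CPM. *Cyp2c70* itself separated the genotypes, at 275 to 851 CPM in the WT mice and 110 to 187 CPM in the KO mice. The library of male WT chow replicate 1 stood apart, with a TMM factor of 0.639 where the other 31 had 0.894 to 1.28. Hepatocyte markers (*Alb*, *Apoa1*, *Ttr*, *Cps1* and *Serpina1a*) summed to 46660 to 171996 CPM over all libraries.

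The 10 genes lie on 7 chromosomes in GRCm38 and all encode proteins. *S100a8* (ENSMUSG00000056054) and *S100a9* (ENSMUSG00000056071) are near neighbours on chromosome 3, at 90668978 to 90670035 on the plus strand and 90692632 to 90695721 on the minus strand. *Ccr2* (ENSMUSG00000049103) lies on chromosome 9 at 124101950 to 124113557, on the plus strand. The deposited counts are per gene, so they do not separate exons or untranslated parts. *Itgam* (ENSMUSG00000030786, chromosome 7, 128062640 to 128118491, plus strand) shares 3450 of its 5024 exonic bases with the gene model Gm49368 on the same strand, which has at most 2 counts in any library. Reads from the shared stretch may have been left out, so the level of *Itgam* is uncertain and is not set against other genes here. Of the 50-base words in the transcripts, 26.9% for *Chil3* (mainly with *Chil4*), 14.4% for *Ly6c2* (mainly with *Ly6c1*) and 10.5% for *Csf3r* also occur in other genes, and those levels are uncertain to that extent. For *S100a8*, *S100a9*, *Retnlg* and *Mmp8* no such word is shared.

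Promoters are shown because C/EBP and PU.1 factors are known drivers of myeloid genes. For all 10 genes, RefSeq promoters on GRCm38.p6 were matched, and the 250 bases before the start were searched on both strands for TTNNGNAA, a C/EBP-type word, and for GAGGAAG, a PU.1-type word. The first word stood in 8 of the 10, against 36.8% of 32851 promoters, and the second in 5 of the 10, against 10.6%. A match is a description of letters, not a bound site. Printed below are 4 windows that end before the annotated gene, with the matches in capitals. They are *S100a9* (chr3:90695722-90695971, minus strand), *Ly6c2* (chr15:75111972-75112221, minus strand), *Itgam* (chr7:128062390-128062639, plus strand) and *Chil3* (chr3:106167565-106167814, minus strand).
S100a9: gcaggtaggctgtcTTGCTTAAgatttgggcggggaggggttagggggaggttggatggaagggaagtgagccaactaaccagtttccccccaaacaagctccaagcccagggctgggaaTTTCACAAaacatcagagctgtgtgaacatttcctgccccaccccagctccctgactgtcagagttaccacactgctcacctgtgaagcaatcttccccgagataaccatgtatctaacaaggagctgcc
Ly6c2: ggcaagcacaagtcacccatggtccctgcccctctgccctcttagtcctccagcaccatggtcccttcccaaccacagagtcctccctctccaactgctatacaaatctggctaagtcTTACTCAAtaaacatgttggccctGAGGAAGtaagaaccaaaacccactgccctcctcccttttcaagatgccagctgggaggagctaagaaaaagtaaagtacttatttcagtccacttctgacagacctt
Itgam: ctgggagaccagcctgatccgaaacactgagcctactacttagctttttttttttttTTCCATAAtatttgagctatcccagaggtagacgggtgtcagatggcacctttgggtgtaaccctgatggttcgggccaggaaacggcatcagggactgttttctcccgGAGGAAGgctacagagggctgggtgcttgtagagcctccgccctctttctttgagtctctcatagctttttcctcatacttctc
Chil3: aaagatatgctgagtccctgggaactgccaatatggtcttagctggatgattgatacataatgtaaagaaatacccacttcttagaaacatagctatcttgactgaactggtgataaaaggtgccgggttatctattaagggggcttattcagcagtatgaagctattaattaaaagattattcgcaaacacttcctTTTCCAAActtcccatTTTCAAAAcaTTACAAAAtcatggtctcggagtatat
The windows of *S100a9* and *Chil3* hold the C/EBP-type word 2 and 3 times and lack the PU.1-type word, while those of *Ly6c2* and *Itgam* hold each word once.

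Chow-fed KO females were compared with chow-fed WT females to ask whether these genes differ when Cyp2c70 is missing. *Ccr2*, *Ly6c2*, *Csf3r*, *S100a8* and *S100a9* were higher in the KO livers. Calls needed a log2 fold change above 1 or below -1 and a Benjamini-Hochberg adjusted p below 0.05 in edgeR's quasi-likelihood test, with the adjustment made across every gene that entered it. By that rule these 5 of the 10 genes rose, *Itgam* was tested and not called, and *Cxcr2*, *Retnlg*, *Mmp8* and *Chil3* had too few reads to be tested. Of all genes tested, 5.67% were called higher. The low-count filter was run on each pair of groups, and *S100a8* passed it in females only with KO chow mice in the pair. Its place among the tested genes thus depends on the group where it is high. Without a filter on low counts, all 10 had a positive log2 fold change with a median of 1.94, beside 0.04 over all genes.

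*Ccr2*, the receptor for CCL2, was at 1.13, 1.28, 1.08 and 1.15 CPM in female WT mice and at 6.99, 8.42, 5.48 and 2.58 CPM in female KO mice on chow. Every KO mouse lay above every WT mouse, and replicate 4 was the lowest of the KO mice. The log2 fold change was 2.37 (SE 0.32, Benjamini-Hochberg adjusted p = 0.0023 by edgeR). *Ly6c2*, which encodes the Ly6C antigen of inflammatory monocytes, was at 0.577, 0.52, 0.221 and 0.286 CPM in WT and 1.69, 1.44, 1.24 and 0.705 CPM in KO females. These groups did not overlap either, and *Ly6c2* rose by 1.69 on the log2 scale (SE 0.38, adjusted p = 0.0168 by edgeR). *Itgam*, the CD11b chain of the integrin that both cell types use to leave vessels, was at 0.315, 0.543, 0.442 and 0.382 CPM in WT and 0.876, 1.23, 0.648 and 0.608 CPM in KO females. The KO mice were again all above the WT mice, but the log2 fold change of 1.02 (SE 0.31) had an adjusted p of 0.0549 by edgeR.

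*Csf3r*, the receptor for G-CSF, was the most even of the genes in WT females, at 2.41, 2.46, 2.6 and 2.46 CPM, against 6.65, 7.4, 4.89 and 3.7 CPM in KO females. It rose by 1.21 on the log2 scale (SE 0.21, adjusted p = 0.0062 by edgeR), with no overlap. *S100a8*, a subunit of calprotectin, was at 0.341, 0.354, 0.221 and 0.215 CPM in WT and 1.37, 1.53, 0.806 and 0.778 CPM in KO females. The groups lay apart, and *S100a8* rose by 2.01 on the log2 scale (SE 0.34, adjusted p = 0.0052 by edgeR). Its partner *S100a9* was at 0.394, 0.638, 0.197 and 0.263 CPM in WT and 1.92, 1.9, 0.943 and 0.608 CPM in KO females. Here KO replicate 4 fell below WT replicate 2, so the groups overlapped, and the log2 fold change was 1.87 (SE 0.47, adjusted p = 0.0251 by edgeR). Of the tested genes, 5 had every KO mouse above every WT mouse, a pattern found in 11.1% of all genes tested.

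The calls for *S100a9* and *Ly6c2* were the least firm. *S100a9* missed the threshold when WT replicate 1, 3 or 4 or KO replicate 1 or 2 was left out (adjusted p 0.0559 to 0.0766 by edgeR), *Ly6c2* when KO replicate 2 was (0.0502), and *Itgam* passed it without KO replicate 4 (0.0326). Without KO replicate 2 the number of called genes was 3.

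**Figure D1:**
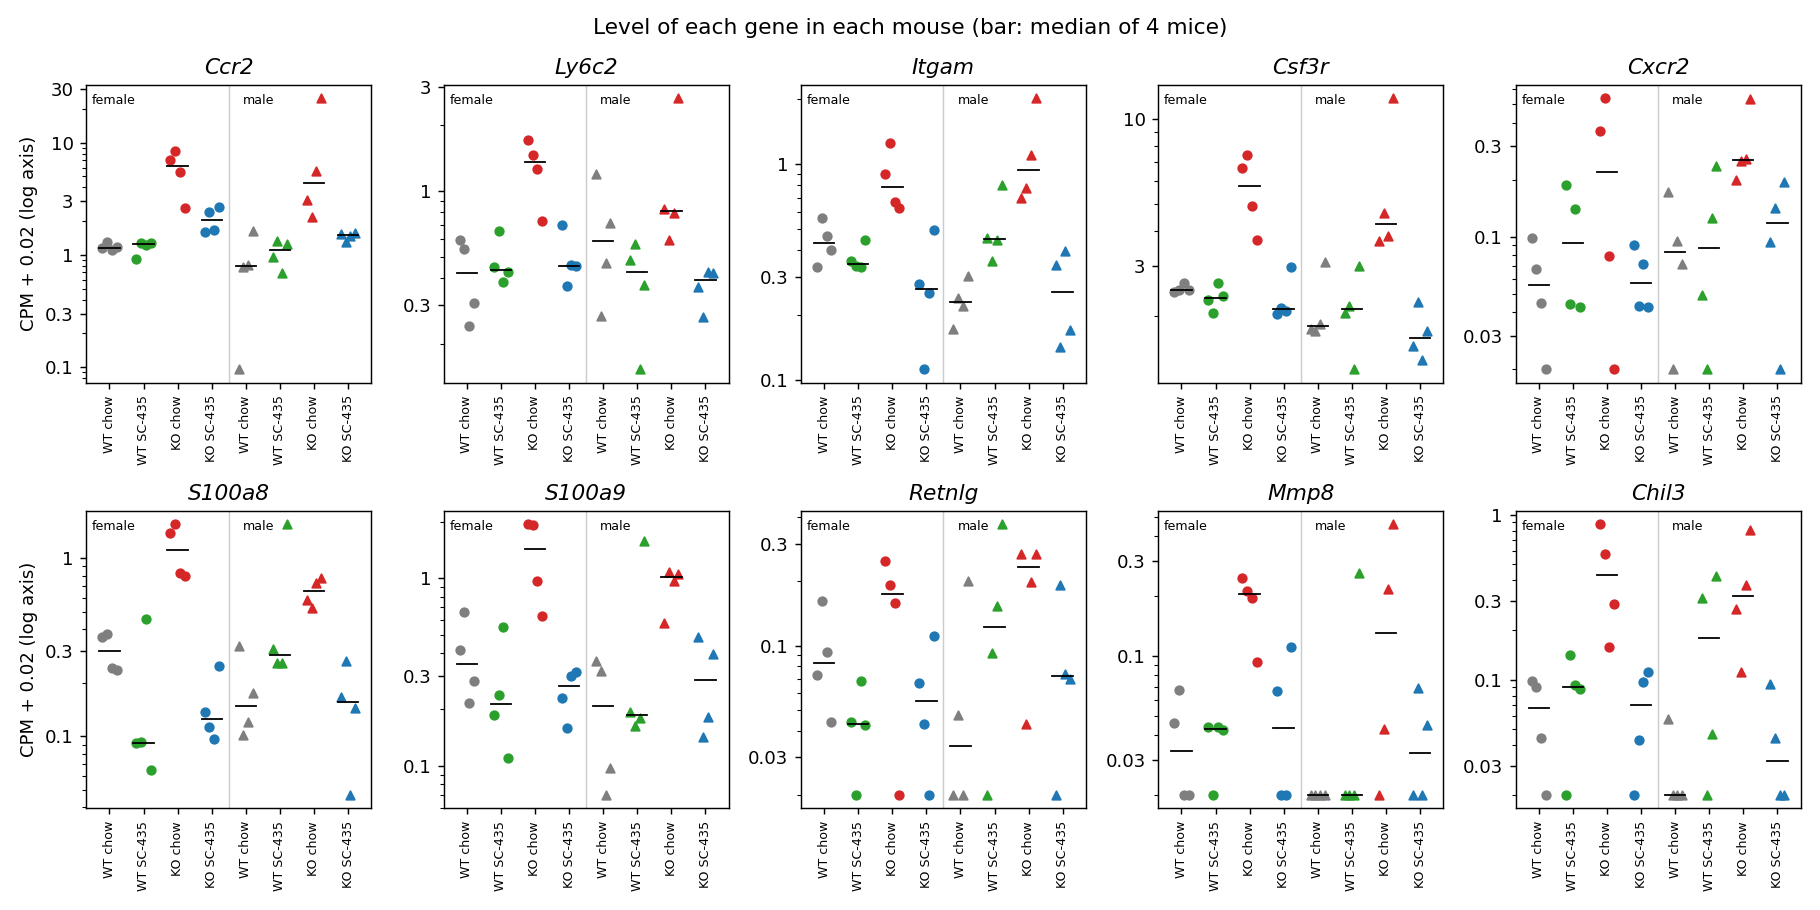
CPM + 0.02 on a log axis for each of the 10 genes, 1 point per mouse (circles female, triangles male), with a bar at the median of 4 mice and a separate scale for each gene. The red KO chow mice have the highest median of their sex for all 10 genes, and the blue KO SC-435 mice lie near the grey WT chow mice, with *Ccr2* in female KO SC-435 mice (1.57 to 2.63 CPM) above WT chow (1.08 to 1.28 CPM).

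The other genes were close to the limit of detection in females and are given by their reads, summed over 4 mice and scaled for depth, with exact 95% intervals that cover counting error only. *Chil3*, a chitinase-like protein of marrow-derived monocytes, had 92 reads in KO against 7 in WT females, a ratio of 10.9 (5.08 to 27.9). Its 4 KO mice (0.138 to 0.857 CPM) lay above the WT mice (0 to 0.0787 CPM), and the exact permutation test on log2(CPM + 0.5) gave p = 0.0286, the smallest that 4 against 4 allows. *Mmp8*, neutrophil collagenase, had 34 reads against 3, a ratio of 9.39 (2.95 to 47.8), also without overlap, though KO replicate 4 had 3 reads and WT replicate 2 had 2. The share of all genes without overlap was counted among tested genes only, so these separations have no background beside them. *Cxcr2*, the neutrophil receptor for CXC chemokines, had 48 reads against 6, a ratio of 6.63 (2.83 to 19.0), but 45 of the 48 came from KO replicates 1 and 2, and replicate 4 had 0. For *Retnlg*, a resistin-like secreted protein of neutrophils, 28 reads against 12 gave 1.93 (0.952 to 4.18), and the groups overlapped.

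Per kilobase of gene model, *S100a9* had the highest mean level of the 9 genes other than *Itgam* in female KO mice on chow, at 2.57 ± 1.28 CPM per kb (SD, n = 4). *S100a8* (1.62 ± 0.56) and *Csf3r* (1.57 ± 0.47) followed and did not differ beyond their spread. *Ccr2* was at 0.868 ± 0.370 and *Ly6c2* at 0.463 ± 0.153 CPM per kb. *Cxcr2* (0.0754 ± 0.080) and *Mmp8* (0.0691 ± 0.027) were the lowest.

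SC-435 was given to KO females to ask whether blocking bile acid recovery alters this pattern. All 6 tested genes fell with the drug, where 3.7% of all genes tested were called lower. *S100a8* again entered the test only through the KO chow mice. The KO chow mice serve in this comparison and in the one with WT mice, so a rise and a fall of the same gene are not independent of each other. Without a filter, all 10 had a negative log2 fold change with a median of -1.95, beside -0.07 over all genes.

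With SC-435, *S100a8* was at 0.117, 0.0923, 0.0772 and 0.227 CPM in KO females, so that each treated mouse was below each chow-fed one. Its log2 fold change of -3.11 (SE 0.40, adjusted p = 0.0023 by edgeR's quasi-likelihood test) had the largest size of the 6. *S100a9* was at 0.211, 0.138, 0.283 and 0.295 CPM and its log2 fold change was -2.55 (SE 0.44, adjusted p = 0.0060 by edgeR). The calprotectin genes were thus separated from the chow-fed KO mice without overlap.

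*Csf3r* was at 2.02, 2.12, 2.06 and 2.95 CPM, with a log2 fold change of -1.32 (SE 0.23, adjusted p = 0.0066 by edgeR). *Ly6c2* was at 0.681, 0.346, 0.438 and 0.432 CPM, and fell by 1.44 on the log2 scale (SE 0.33, adjusted p = 0.0159 by edgeR). *Itgam* was at 0.258, 0.0923, 0.232 and 0.477 CPM, and fell by 1.67 (SE 0.43, adjusted p = 0.0257 by edgeR). In none of these did treated and untreated KO females overlap. *Ccr2* was at 1.57, 2.38, 1.65 and 2.63 CPM, and fell by 1.53 (SE 0.33, adjusted p = 0.0138 by edgeR), but treated replicate 4 was above chow replicate 4. Of the 6 genes, 5 had every treated mouse below every untreated mouse, as did 10% of all genes tested. *Itgam* was no longer called when KO chow replicate 1 or 2 or SC-435 replicate 1, 2 or 3 was left out (adjusted p 0.0534 to 0.0796 by edgeR), nor *Ly6c2* without SC-435 replicate 2 (0.0563).

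The genes with few reads went the same way by count. *Chil3* had 8 reads with SC-435 against 92 on chow, a ratio of 0.101 (0.0425 to 0.208), with no overlap, for which no share among untested genes was counted. *Cxcr2* had 7 against 48 (0.170, 0.0649 to 0.378), *Mmp8* 6 against 34 (0.206, 0.0706 to 0.495) and *Retnlg* 7 against 28 (0.291, 0.107 to 0.682), all with overlapping mice.

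Treated KO females were also set beside chow-fed WT females to see what difference remained. None of the 5 tested genes was called in either direction, against 3.93% of all genes tested, and by edgeR 1 of them had an unadjusted p under 0.05. That gene was *Ccr2*, whose log2 fold change of 0.84 (SE 0.22, adjusted p = 0.0231 by edgeR) was below the fold threshold, although all 4 treated KO mice (1.57 to 2.63 CPM) were above all 4 WT mice (1.08 to 1.28 CPM). DESeq2 and voom also called 0 genes. *S100a8* was not tested there. Its treated KO mice (0.0772 to 0.227 CPM) overlapped with WT mice (0.215 to 0.354 CPM) and had the lower mean, with p = 0.0857 in the exact permutation test.

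In chow-fed males the same genes were measured in KO and WT mice. By edgeR 0 of the 6 tested genes was called, where 0.914% of all genes tested were called higher. At an unadjusted p under 0.05 there were 5, and DESeq2 called 6 of the 10, voom with quality weights 5, a single fit of the 4 male groups 4 and edgeR without a filter on low counts 2. The share of all genes was counted for the main edgeR calls only, so these counts have no background beside them. Without WT replicate 1, the library that stood apart, 3 genes were called: *Itgam*, *S100a8* and *S100a9*. Without a filter all 10 log2 fold changes were positive, with a median of 2.21 that stays the same with *Mmp8* at its bound, beside 0.14 over all genes.

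*Ccr2* was at 0.0759, 0.767, 0.801 and 1.6 CPM in male WT mice and at 3.08, 2.14, 5.6 and 24.7 CPM in male KO mice. All KO mice lay above the WT mice, but replicate 4 was more than 4-fold above the next, and WT replicate 1 had 2 reads. The log2 fold change was 3.49 (SE 0.96, adjusted p = 0.130 by edgeR), 2.16 (adjusted p = 0.346) without KO replicate 4 and 3.12 (adjusted p = 0.0780) without WT replicate 1. *Itgam* was at 0.152, 0.219, 0.2 and 0.283 CPM in WT and 0.673, 0.759, 1.08 and 1.99 CPM in KO males. Those groups were apart, and the log2 fold change of 2.43 (SE 0.47, adjusted p = 0.0503 by edgeR) just missed the threshold. *Ly6c2* was at 1.18, 0.247, 0.45 and 0.696 CPM in WT and 0.808, 0.575, 0.769 and 2.63 CPM in KO males, with wide overlap. Its log2 fold change of 0.97 (SE 0.63, adjusted p = 0.488 by edgeR) was 0.19 without KO replicate 4 and 1.41 without WT replicate 1.

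*Csf3r* was at 1.78, 1.75, 1.85 and 3.09 CPM in WT and 3.68, 4.6, 3.82 and 11.8 CPM in KO males, with a log2 fold change of 1.54 (SE 0.45, adjusted p = 0.145 by edgeR), which was 0.94 without KO replicate 4, the mouse at 11.8 CPM. *S100a8* was at 0.303, 0.0822, 0.1 and 0.155 CPM in WT and 0.561, 0.506, 0.71 and 0.758 CPM in KO males, with a log2 fold change of 2.07 (SE 0.47, adjusted p = 0.0807 by edgeR). *S100a9* was at 0.341, 0.302, 0.05 and 0.0773 CPM in WT and 0.561, 1.06, 0.946 and 1.04 CPM in KO males, with a log2 fold change of 2.31 (SE 0.59, adjusted p = 0.109 by edgeR). For all of these the KO mice were above every WT mouse. Among tested genes this held for 5 of the 6, against 7.71% of all genes tested, and without WT replicate 1 the log2 fold changes of *S100a8* and *S100a9* were 2.51 and 2.70 (adjusted p = 0.0145 and 0.0339 by edgeR). In males *S100a8* and *S100a9* passed the low-count filter only with KO chow mice in the pair, and *Itgam* was not tested between KO SC-435 and WT chow. The tally thus counts genes chosen in part by the group where they are high.

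Of the genes with few reads, *Chil3* had 78 in KO against 1 in WT males, a ratio of 56.5 (9.85 to 2260), but that 1 read came from WT replicate 1, and the other 3 WT mice had 0. *Mmp8* had 36 against 0 and was at least 8.69-fold higher over a floor of 3 reads for the group, with 35 of the 36 reads in KO replicates 3 and 4. *Cxcr2* had 59 against 9 (4.75, 2.34 to 10.9), with 4 of the 9 in WT replicate 1, without which the WT mean was 0.0422 CPM. *Retnlg* had 35 against 8 (3.17, 1.44 to 7.91), with 7 of the 8 in WT replicate 4, without which the WT mean was 0.00914 CPM. The mice of *Chil3* and *Cxcr2* did not overlap (exact permutation p = 0.0286 for each), while those of *Mmp8* and *Retnlg* did. No share of separated genes was counted among genes too faint to be tested.

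**Figure D2:**
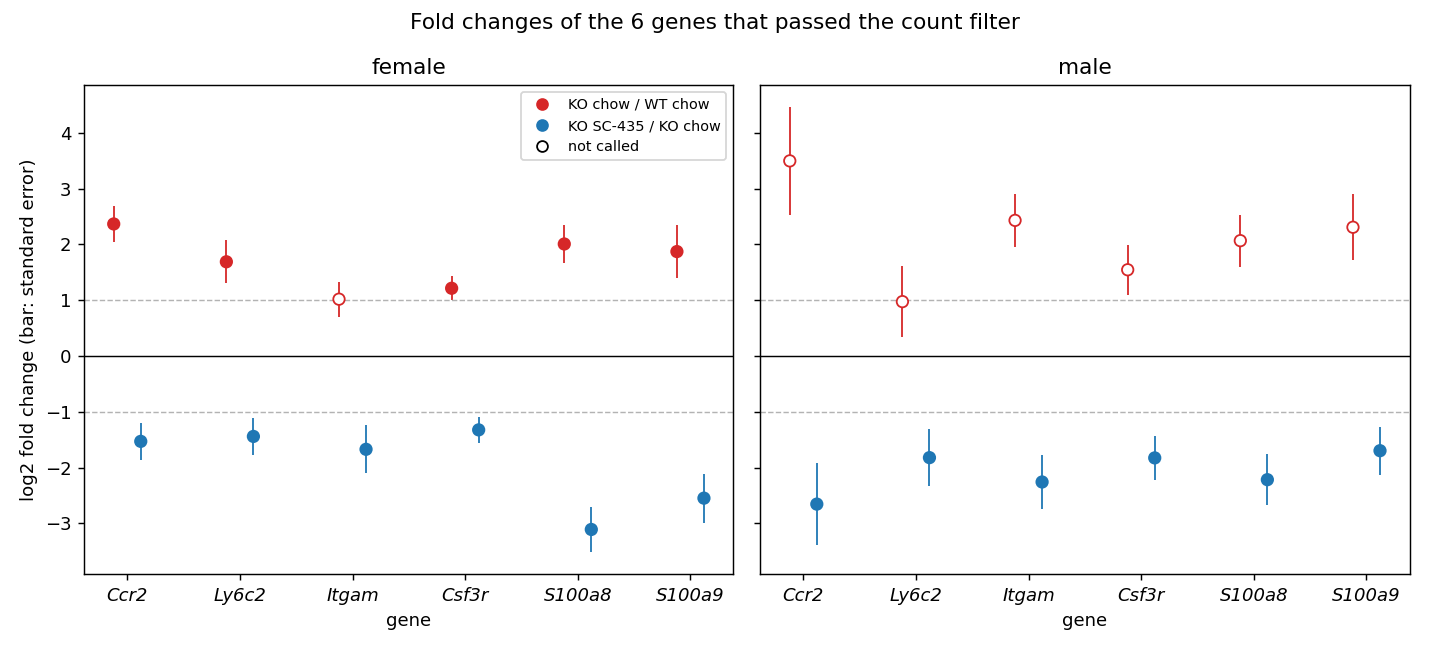
Log2 fold change, with its standard error as a bar, for the 6 genes tested in each sex: KO against WT on chow in red and SC-435 against chow in KO mice in blue, with dashed lines at 1 and -1. Filled points passed the call, open ones did not, and all red points of males are open while all blue points of both sexes are filled.

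With SC-435, all 6 tested genes fell in KO males, where 4.57% of all genes tested were called lower. *S100a8*, *S100a9* and *Itgam* entered this test through the KO chow mice. *Ccr2* was at 1.52, 1.3, 1.45 and 1.55 CPM, a narrow range below every chow-fed KO male. It fell by 2.66 on the log2 scale (SE 0.73, adjusted p = 0.0371 by edgeR), and by 1.34 (adjusted p = 0.0212) without KO chow replicate 4. *Itgam* was at 0.32, 0.122, 0.377 and 0.15 CPM, with a log2 fold change of -2.26 (SE 0.48, adjusted p = 0.0169 by edgeR). *Ly6c2* was at 0.344, 0.244, 0.404 and 0.401 CPM, with -1.82 (SE 0.52, adjusted p = 0.0408 by edgeR), and -1.07 without KO chow replicate 4. For these monocyte and shared genes the treated and untreated mice lay apart.

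*S100a8* was at 0.147, 0.244, 0.0269 and 0.125 CPM in treated KO males, with a log2 fold change of -2.22 (SE 0.45, adjusted p = 0.0144 by edgeR). *S100a9* was at 0.467, 0.122, 0.162 and 0.376 CPM, with -1.70 (SE 0.43, adjusted p = 0.0287 by edgeR). *Csf3r* was at 1.55, 2.22, 1.37 and 1.75 CPM, with -1.83 (SE 0.40, adjusted p = 0.0185 by edgeR). All 6 genes had every treated mouse below every untreated one, as did 11% of all genes tested. *Chil3* had 4 reads against 78 (0.0632, 0.0168 to 0.168), *Mmp8* 3 against 36 (0.103, 0.0202 to 0.325) and *Retnlg* 11 against 35 (0.387, 0.177 to 0.780). *Cxcr2* and *Chil3* were also below every chow-fed KO male in all treated mice, *Cxcr2* at 0 to 0.175 against 0.18 to 0.512 CPM. Neither was tested, and the share of 11% does not cover untested genes.

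The count of 6 in males rests on few mice. Without SC-435 replicate 4 it was 0, without replicate 3 it was 2, without replicate 2 it was 3, and without KO chow replicate 3 it was 3, with the fold changes of the 6 genes still negative in each. *Ccr2* and *Ly6c2* missed the threshold without KO chow replicate 3 or any 1 of the SC-435 mice, *S100a9* without KO chow replicate 3 or SC-435 replicate 2, 3 or 4, *Csf3r* without SC-435 replicate 1, 3 or 4, and *Itgam* and *S100a8* without SC-435 replicate 4. In the fit of the 4 male groups 3 were called, without *Ly6c2*, *S100a8* and *S100a9* (adjusted p = 0.0626, 0.0570 and 0.191 by edgeR). Treated KO males did not pass against chow-fed WT males for any of 3 genes tested by edgeR, with 0 called (0.208% of all genes tested were called), with 0 at an unadjusted p under 0.05 and 0 by DESeq2 and voom.

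In WT mice the drug called none of these genes. By edgeR, 0 of 5 were called in females, where 1.1% of all genes tested were called in either direction, and 0 of 4 in males, where 0.0394% were. At an unadjusted p under 0.05 there were 0 in females and 1 in males, *Itgam*, and DESeq2 and voom called 0 in each. Male WT mice had 0.436, 0.335, 0.426 and 0.78 CPM of *Itgam* with SC-435, all above the 0.152 to 0.283 CPM of chow-fed WT males (exact permutation p = 0.0286, the smallest possible). The adjusted p of *Itgam* was 0.67 by edgeR, and the share of all genes separated in this way was not counted. Male WT SC-435 replicate 4 was the highest of its group for 8 of the 10 genes. That mouse had 1.53 CPM of *S100a8* and 1.56 CPM of *S100a9*, where the other 3 mice had 0.239 to 0.291 and 0.144 to 0.175 CPM, and 1.24 CPM of *Ccr2*, within the 0.665 to 1.32 CPM of the others.

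Whether the effect of the drug differed between genotypes was tested as an interaction in each sex. In females *Csf3r* was the 1 gene of 6 tested that passed, with a difference of log2 fold changes of -1.23 (SE 0.28, adjusted p = 0.0314 by edgeR), and 2.64% of all genes tested passed. That call was lost when any of 9 mice was left out (adjusted p 0.0514 to 0.0790): WT chow replicate 2 or 3, KO chow replicate 2, WT SC-435 replicate 1, 3 or 4, or KO SC-435 replicate 1, 2 or 3. Without KO chow replicate 4, 3 genes passed, and without KO SC-435 replicate 4, 2 passed. *Ccr2* had a difference of -1.54 (SE 0.41, adjusted p = 0.0548 by edgeR) and *S100a8* of -2.27 (SE 0.80, adjusted p = 0.125 by edgeR), which was -1.01 without WT SC-435 replicate 3. All 6 genes tested in females had an unadjusted p under 0.05 by edgeR, a threshold at which no share over all genes was counted. In males 0 of 7 tested passed, where 0.0906% of all genes tested did. At an unadjusted p under 0.05 there were 6, and DESeq2 called 3, with no share over all genes counted for either. The nearest was *Itgam* at -3.44 (SE 0.64, adjusted p = 0.0639 by edgeR), which passed when WT chow replicate 1 (0.0453) or, in its place, KO chow replicate 2 (0.0476) was left out. *S100a8* (-4.10, SE 0.94, adjusted p = 0.101 by edgeR) passed without WT chow replicate 1 (0.0488).

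A difference between the sexes was not detected. Of 8 genes tested by edgeR, 0 passed for the effect of genotype on chow, where 0.0235% of all genes tested passed, and 0 for the effect of the drug in KO mice, where 0.211% did. At an unadjusted p under 0.05 there were 1 and 0, and DESeq2 called 0 in both. For *Ccr2* the female effect of genotype minus the male one was -1.07 (SE 0.99, adjusted p = 0.923 by edgeR), and 0.24 without male KO chow replicate 4.

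Single mice moved the group means, and not all genes moved alike in them. Male KO chow replicate 4 was the highest of its group for 9 of the 10 genes, which summed to 44.9 CPM, where no other mouse of the group exceeded 13.9 CPM. Its *Ccr2* was 24.7 CPM against 2.14 to 5.6, whereas its *S100a8* of 0.758 CPM was close to the 0.506 to 0.71 CPM of the others. Female KO chow replicate 4 was the lowest of its group for 9 genes, with a sum of 9.31 CPM against 14.5 to 23.4.

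**Figure D3:**
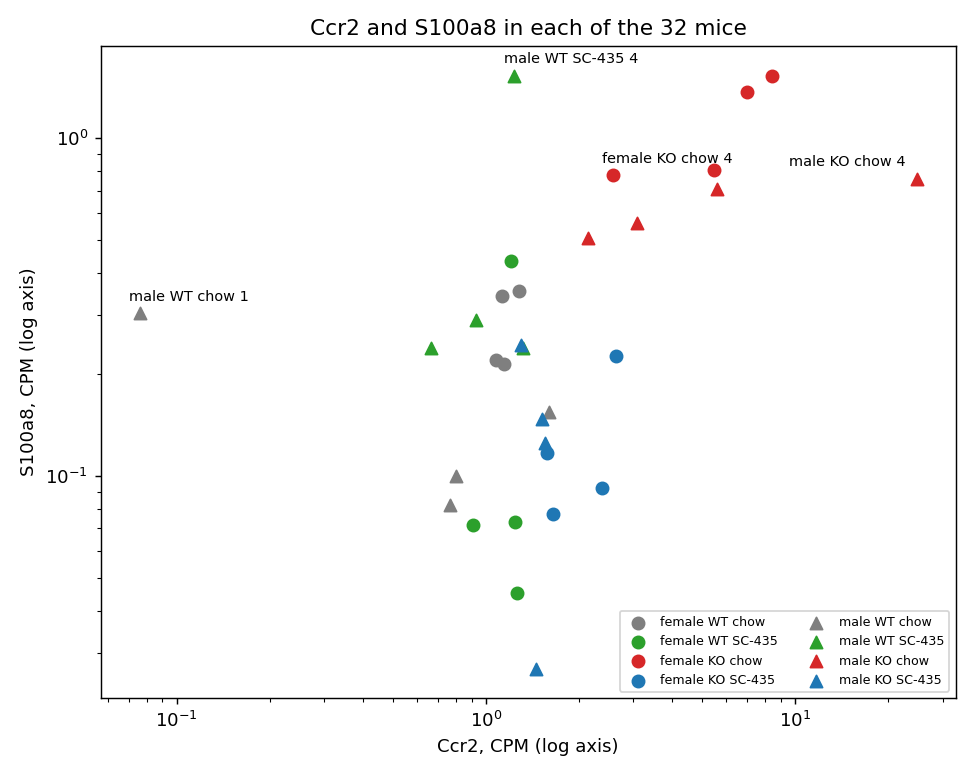
*Ccr2* against *S100a8* in each of the 32 mice, in CPM on log axes, with colours for genotype and diet and shapes for sex. The KO chow mice lie at the upper right, male KO chow 4 at 24.7 CPM of *Ccr2* with 0.758 CPM of *S100a8*, and male WT SC-435 4 at 1.24 CPM of *Ccr2* with 1.53 CPM of *S100a8*.

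Across the 32 libraries, *S100a8* and *S100a9* had a Pearson correlation of 0.91 on log2(CPM + 0.5), and *Ccr2* and *S100a8* of 0.60. Among the 13527 protein-coding genes outside the 10 that averaged 10 counts or more, those closest to *S100a8* were *Card14* (0.88), *Slc13a5* (0.86), *Fgr* (0.84), *Syt12* (0.84) and *Lcn2* (0.82). For *Ccr2* they were *Myof* (0.96), *Sirpa* (0.95), *Otulinl* (0.95), *Slc25a24* (0.95) and *Arhgap22* (0.94). These values describe libraries that share group, sex and diet, and include the differences between groups.

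Lists of other monocyte and neutrophil markers were counted, which need not come from cells that entered from the blood. The monocyte list summed to 138 to 170 CPM in female WT mice on chow, where *Ccr2* was at 1.08 to 1.28 CPM. The part of resident macrophages, such as Kupffer cells, in that sum was not tested. Of 16 monocyte markers, 10 were called higher in KO than in WT females on chow and 0 lower, and without a filter their median log2 fold change was 1.31 beside 0.04 over all genes. *Lyz2*, lysozyme, rose by 1.49 (SE 0.19, adjusted p = 0.0019 by edgeR) and *Fcgr4*, an Fc receptor, by 1.26 (SE 0.24, adjusted p = 0.0080). *Csf1r*, the receptor for M-CSF, had 0.84 (SE 0.13, adjusted p = 0.0041), under the fold threshold. With SC-435, 9 of the 16 fell in KO females. Between treated KO and chow-fed WT females, 2 of 13 tested were called higher and 0 lower, where 3.93% of all genes tested were called in either direction. Without a filter the median log2 fold change of the list was 0.06 there. In males 1 was called higher in KO mice (*Cx3cr1*) and 4 fell with SC-435.

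Of 13 further neutrophil markers, 6 were tested in females and 1, *Pglyrp1*, was called higher in KO mice, while 5 were tested in males and 1, *Clec4d*, was called. These, *Cx3cr1*, *Prtn3* and *Cd163* were named after their values were seen, as was *Ly6g*. *Ly6g*, the defining surface marker of mouse neutrophils, had at most 0.134 CPM in any mouse and was at 0 in all 8 females given SC-435. With 3 counts at 0.0529 to 0.114 CPM, the reads of *Ly6g* were too few to compare groups. *Fpr1*, a formyl peptide receptor and the highest of the list per kilobase, was not called (0.62, SE 0.20, adjusted p = 0.0659 by edgeR in females). The summed level of the list overlapped between KO and WT mice on chow, at 10.8 to 23.7 against 10.5 to 19.1 CPM in females and 15.0 to 20.5 against 8.38 to 23.2 CPM in males. Without WT replicate 1 the male WT mice were at 17.8 to 23.2 CPM. The sum leans on *Fpr1* (1.95 CPM per kb) and *Hdc* (1.56), with *Fpr2* next at 0.524, and says little about fainter markers. In males the log2 fold changes of *Fpr1* and *Hdc* were 0.25 and -0.14, and neither was called. Without a filter the list's median log2 fold change was 0.88 in females and 1.33 in males. Of 10 markers of granulocyte precursors, 2 were tested in each sex, and 0 were called in females and 1, *Prtn3*, in males. Without a filter their median log2 fold change was 1.26 in females (9 of 10 positive) and 1.83 in males (6 of 7 positive). Their sum was 35.6 CPM in male WT SC-435 replicate 4, the mouse with high calprotectin genes, against 9.33 to 11.7 in the other 3 of its group. Over all libraries that sum leans on *Cebpe* (7.15 CPM per kb), with *Prtn3* next at 0.763. It does not show how many precursor genes were high in that mouse.

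**Figure D4:**
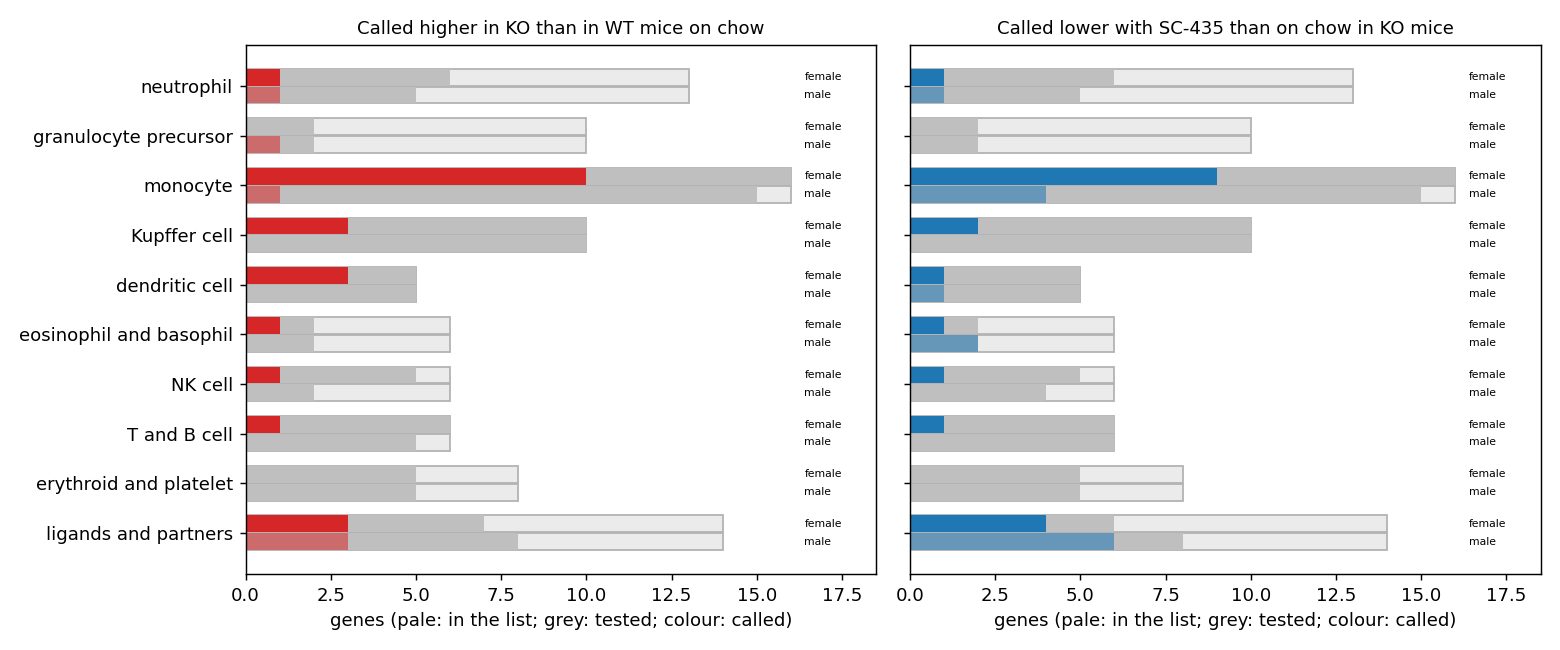
Number of genes in each of 10 lists (pale), tested (grey) and called (colour) in females (upper bar of each pair) and males (lower bar), for KO against WT on chow at left and SC-435 against chow in KO mice at right. Monocyte markers, the longest list and with all 16 tested, had the most calls in females, 10 of 16 higher and 9 of 16 lower. Of the 13 neutrophil markers, 6 were tested in females and 1 was called in each comparison.

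The ligands and partners of the 10 genes were a list of 14. In females 3 were called higher in KO mice and 4 fell with SC-435, in males 3 and 6. *Cxcl1*, a ligand of CXCR2, rose by 1.66 in female KO mice (SE 0.30, adjusted p = 0.0064 by edgeR) and by 3.53 in male KO mice (SE 0.66, adjusted p = 0.0460). *Itgb2*, the chain that pairs with *Itgam*, rose by 1.20 in female KO mice (SE 0.18, adjusted p = 0.0029 by edgeR), and *Icam1*, the ligand of that integrin, had 0.87 (SE 0.17, adjusted p = 0.0088), under the fold threshold. *Ccl2*, the ligand of CCR2, rose by 1.45 in females (SE 0.37, adjusted p = 0.0276 by edgeR) and by 4.15 in males (SE 0.37, adjusted p = 0.0021). It was named after its values were seen. Male KO mice on chow had 3.64 to 7.77 CPM of *Ccl2* and male WT mice 0.192 to 0.375 CPM. With SC-435 KO males had 0.296 to 0.451 CPM, below every chow-fed KO male.

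Markers of other cells differed between KO and WT mice too. Cholangiocyte markers, of which 3 of 5 were called higher in KO mice of each sex, summed to 131 to 283 CPM in female KO mice on chow against 36.6 to 69.8 in WT mice, and to 143 to 1151 against 23.4 to 34.7 in males. With SC-435, 0 of the 5 were called lower in KO females, whose sums were 97.3 to 141 CPM, and 4 of the 5 in KO males, at 49.2 to 60.2 CPM. These sums mostly follow *Spp1*, with a mean of 68.4 CPM per kb over all libraries. The next of the list were *Sox9* (1.82) and *Epcam* (1.62). In male KO mice on chow these 3 were the genes called higher, while *Krt19* and *Krt7* were not called. Male KO chow replicate 4 held the highest sum of monocyte markers, 730 CPM against 185 to 292 in the other 3. Kupffer cell markers summed to 557 to 843 CPM in female KO mice against 485 to 516 in WT mice, with 3 of 10 called higher and 1, *Cd163*, lower, and to 748 to 1252 against 697 to 915 in males, with 0 called. Of the other lists, dendritic cells had 3 of 5 called higher in female KO mice, eosinophils and basophils 1 of 6, NK cells 1 of 6, T and B cells 1 of 6, and erythroid cells and platelets 0 of 8. None of these 5 lists had a gene called higher in male KO mice. Of 5 hepatocyte markers, 1 (*Apoa1*) was called lower in female KO mice, and their sum was 50419 to 73779 CPM in KO against 88198 to 114797 CPM in WT females on chow. *Itgam* and *Csf3r* are not exclusive to these cells, and the part of other cell types in the differences was not tested.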

How the data were processed

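Total liver RNA was extracted with TRIzol, and poly-A libraries were sequenced on a HiSeq instrument. The authors deposited raw counts per gene for 32 libraries; their processing notes name HISAT2 2.0.5, featureCounts 1.5.0-p3, DESeq2 1.20.0, GATK 4.1.1.0 and the mm10 build, and strand handling is not given in the sources used here. The deposited table also holds 32 FPKM columns, which were not used. Genes were filtered with filterByExpr, scaled by TMM and tested with edgeR 4.0.16 (quasi-likelihood test, Benjamini-Hochberg adjustment) in R 4.3.3, on the 8 libraries of each pair of groups or the 16 of each interaction. Calls needed a log2 fold change above 1 or below -1 besides an adjusted p below 0.05, and an interaction at the adjusted p alone. Single values were tested by a two-sided exact permutation test on log2(CPM + 0.5), for which 4 against 4 mice cannot go below 0.0286. DESeq2 1.42.0, limma 3.58.1 voom with quality weights (chosen after the data were seen), no filter, a replicate block, a fit of 1 sex and leaving out each library were alternatives. The labels give each library as its own mouse.

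The 10 genes and 13 marker lists were chosen with earlier results of these data known, and the result of 1 list is not reported here. Beyond the 10 genes, the 3 genes of a list with the highest mean CPM per kb were named, and others where stated. The edgeR, replicate block, DESeq2 and voom fits were tested on simulated counts for some of the comparisons, and the other steps were not. In those counts the genes made to change had more reads on average than *Mmp8* or *Chil3*. In male KO against WT mice on chow, same-numbered libraries deviated together (correlations 0.101 to 0.194), and the fit with the replicate number as a block also called 0 of the 10 genes. Over 48 pairs of replicates, the lowest chi-square per gene was 20.3, so all libraries were counted as separate samples.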

Additional observations from a re-analysis of the deposited data

Results flagged for a closer look

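Each gene was examined in each group of 4 mice with a median of at least 10 counts, 44 groups in all, and chance sets a mouse apart in about 1 in 20 such groups. Male KO chow replicate 4 lay far above its group for *Ccr2* (24.7 CPM), *Ly6c2* (2.63 CPM) and *Csf3r* (11.8 CPM). Male WT SC-435 replicate 4 stood apart for *S100a8* (1.53 CPM). *Csf3r* was set apart in male WT chow replicate 4 (3.09 CPM, the others 1.75 to 1.85). It was also set apart in female KO SC-435 replicate 4 (2.95 CPM, the others 2.02 to 2.12). *Ccr2* was the lowest in female WT SC-435 replicate 1 (0.907 CPM, the others 1.21 to 1.26). In these groups the others lay close together, so a modest difference was enough to set a mouse apart. The effect of SC-435 on *Csf3r* differed between KO and WT females by -1.23 on the log2 scale.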

How the results depend on the processing

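Shares of all genes were counted for the main edgeR calls only, so the counts by other settings have no background beside them. In KO against WT females on chow, the 5 called genes became 8 by DESeq2, and 3 to 6 when 1 library was left out. In KO females given SC-435 the 6 called genes became 4 to 7 when 1 library was left out. In chow-fed males, 0 became 6 by DESeq2, 2 with no filter on low counts, 4 in a fit of the 4 male groups, 5 by voom with quality weights (added after the data were seen) and 0 to 3 when 1 library was left out. In KO males given SC-435, 6 became 3 in the fit of 4 groups and 0 to 7 when 1 library was left out. For the interaction of genotype and diet, 1 gene in females became 3 by DESeq2, 2 with no filter, 4 by voom and 0 to 3 when 1 library was left out. In males 0 became 3, 1, 2 and 0 to 2. The effect of genotype on *Ccr2* minus that in males, -1.07, turned to 0.55 by voom and ranged from -1.62 to 0.24 when 1 library was left out, positive without male KO chow replicate 4.

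With the replicate number as a block, 3 genes were called in KO males given SC-435 (*Ccr2*, *Ly6c2* and *S100a9* were lost, adjusted p 0.0524 to 0.0701 by edgeR), and 0 in the interaction in females. In KO females given SC-435 it gave 5, without *Itgam* (-1.71, adjusted p = 0.0744 by edgeR). Apart from male KO against WT mice on chow, same-numbered libraries did not all deviate together, so the numbers are not known to pair mice. Reads limit the 4 genes that most comparisons could not test.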

Other observations

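The ratio of *Ccr2* to *S100a8* reads was examined after the values were seen. Its p-values therefore describe values already seen and are no support for a difference. It was 11.6 to 25.8 in female KO mice on SC-435, above the 3.31 to 6.80 of female KO mice on chow (two-sided exact permutation test on the log2 ratio, p = 0.0286) and the 3.31 to 5.33 of female WT mice on chow (exact permutation p = 0.0286). In female WT mice on SC-435 it was 12.7, 17.0, 2.78 and 28.0, so 3 of those 4 mice were also above every chow-fed female, with overlap (exact permutation p = 0.143 against WT chow). In KO males the ratio was 5.3 to 54 with SC-435 and 4.23 to 32.6 on chow (exact permutation p = 0.514). The treated mice had few *S100a8* reads, so single ratios are imprecise.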
